A study of Mus musculus with 35 samples.

Results

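The 10 genes Mrc1, Cd163, Lyve1, Folr2, Cx3cr1, Adgre1, Csf1r, C1qa, C1qb and C1qc are usually read as genes of macrophages that reside in a tissue. They were taken by name from the 55421 genes of the count table, and all 10 had counts. RNA from interscapular brown adipose tissue (iBAT), the fat depot between the shoulder blades that burns fuel for heat, was sequenced from 35 male C57BL/6J mice aged 9 to 10 weeks, 1 library per mouse. Controls (n = 5) were kept at room temperature (24 °C), and 5 mice each spent 6 hours or 1, 2, 3, 4 or 5 days at 6 °C, housed individually and without nesting material. Housing therefore changed together with temperature, and no mouse carried an engineered allele or received a drug. The tissue was sequenced whole, so fewer macrophages and less RNA per macrophage cannot be told apart.

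Resident macrophages live in the connective tissue between adipocytes and along vessels, where they clear dying cells, lipid and debris. Their survival depends on the receptor encoded by Csf1r, which binds the growth factors Csf1 and Il34. In fat, a population along blood vessels is commonly recognised by Mrc1, Cd163, Lyve1 and Folr2, while C1qa, C1qb and C1qc encode the chains of C1q, the recognition unit of the classical complement pathway, and are made by macrophages in many tissues.

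C1qa, C1qb and C1qc lie side by side on the minus strand of chromosome 4 (GRCm38, GENCODE M21), in the order C1qb (136880129 to 136886187), C1qc (136889804 to 136893065) and C1qa (136895917 to 136898803). The 3 genes span 18.68 kb, and no other annotated gene lies inside that interval. Mrc1 is on chromosome 2 (14229392 to 14332057, plus strand) and hosts a microRNA gene, Mir511. Cd163 is on chromosome 6 (124304656 to 124330527, plus strand), Adgre1 on chromosome 17 (57358691 to 57483527, plus strand), and Lyve1 on chromosome 7 (110850607 to 110863239, minus strand), 3 genes with no annotated overlapping neighbour. Folr2 (chromosome 7, 101839988 to 101857194, minus strand), Cx3cr1 (chromosome 9, 119901616 to 120069879, minus strand) and Csf1r each have 1 gene on the opposite strand whose exons overlap theirs (Gm10602, Gm33858 and Hmgxb3). The strand setting of the counting is not given in the sources used here, so reads of those partners may be counted with the members.

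RefSeq promoter windows (GRCm38.p6, 250 bases before to 50 after the transcription start) are considered here for 6 of the 10 genes. Those of C1qb and C1qc are shown because these neighbours had the most similar levels of any pair of members over the mice, and that of Cd163 because it was the member that was lower after 5 days than after 6 hours. Capitals mark GAGGAA, a motif of the macrophage factor PU.1, or TGCTGA, a half-site of MAF factors, on either strand.
C1qb, chr4:136886151-136886450, minus strand: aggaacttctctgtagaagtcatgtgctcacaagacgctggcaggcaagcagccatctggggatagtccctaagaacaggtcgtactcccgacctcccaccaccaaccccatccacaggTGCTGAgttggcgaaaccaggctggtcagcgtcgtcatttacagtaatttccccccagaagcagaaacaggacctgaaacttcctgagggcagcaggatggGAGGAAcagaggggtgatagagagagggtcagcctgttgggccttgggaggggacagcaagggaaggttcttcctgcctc
C1qc, chr4:136892865-136893164, minus strand: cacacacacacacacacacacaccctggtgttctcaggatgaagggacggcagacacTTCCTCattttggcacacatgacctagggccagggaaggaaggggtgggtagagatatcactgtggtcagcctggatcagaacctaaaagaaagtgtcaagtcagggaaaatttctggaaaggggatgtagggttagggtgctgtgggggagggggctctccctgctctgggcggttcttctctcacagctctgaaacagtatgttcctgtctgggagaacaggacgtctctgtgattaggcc
Cd163, chr6:124304401-124304700, plus strand: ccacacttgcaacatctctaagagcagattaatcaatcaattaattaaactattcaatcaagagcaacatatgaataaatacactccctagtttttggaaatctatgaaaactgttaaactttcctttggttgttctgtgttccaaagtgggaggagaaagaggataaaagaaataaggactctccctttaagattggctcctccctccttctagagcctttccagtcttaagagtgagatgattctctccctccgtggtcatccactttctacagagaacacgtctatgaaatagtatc

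GAGGAA occurred in the windows of C1qb, C1qc (as its reverse complement TTCCTC) and Mrc1, and TGCTGA in those of C1qb and Folr2, while the Cd163 window held neither. Of all 32851 RefSeq promoter windows of this length, 28.3% held GAGGAA and 19.5% held TGCTGA on either strand, so these matches are common and describe letters only.

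Each library held 3846016 to 6047247 counts. Levels are given as CPM, counts brought to a common library size with edgeR's TMM factors, and 1 read was worth 0.151 to 0.288 CPM. Sequencing started from transcript 3′ ends, so a CPM value is per transcript end and does not grow with gene length. On that scale C1qa was highest over the 35 mice (mean of 24.2 CPM), followed by C1qb (18.8), Mrc1 (18.1), C1qc (16.9) and Csf1r (12.6). Cd163 (7.34), Lyve1 (6.45), Adgre1 (3.76), Folr2 (2.76) and Cx3cr1 (1.74) were lower, and Cx3cr1 rested on 1 to 25 reads per mouse.

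Room temperature mouse 5 stood apart from the other controls, and values without it are given beside the results it moved most. Adgre1, which encodes the macrophage surface protein F4/80, had 100 reads in that mouse and 3 to 11 in the other 4 controls. C1qa, C1qb and C1qc were also highest there. So were other leukocyte and macrophage genes, with 90 reads of Ptprc (CD45) against 23 to 46, 287 of Lyz2 against 97 to 145 and 171 of Ctss against 47 to 66. The summed level of 7 genes of all leukocytes was 94.3 CPM in it and at most 30.7 CPM in the other controls, and that of 12 genes of all macrophages was 171.5 CPM against at most 77.4 CPM. Mrc1, Cd163, Folr2 and Csf1r were not highest in that mouse. It was picked out by levels of members that are also tested without it, and leaving out a gene's highest control raises its difference. Adjusted p-values and counts without mouse 5 therefore describe how far results rest on it and are not tests in their own right.

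**Figure D1:**
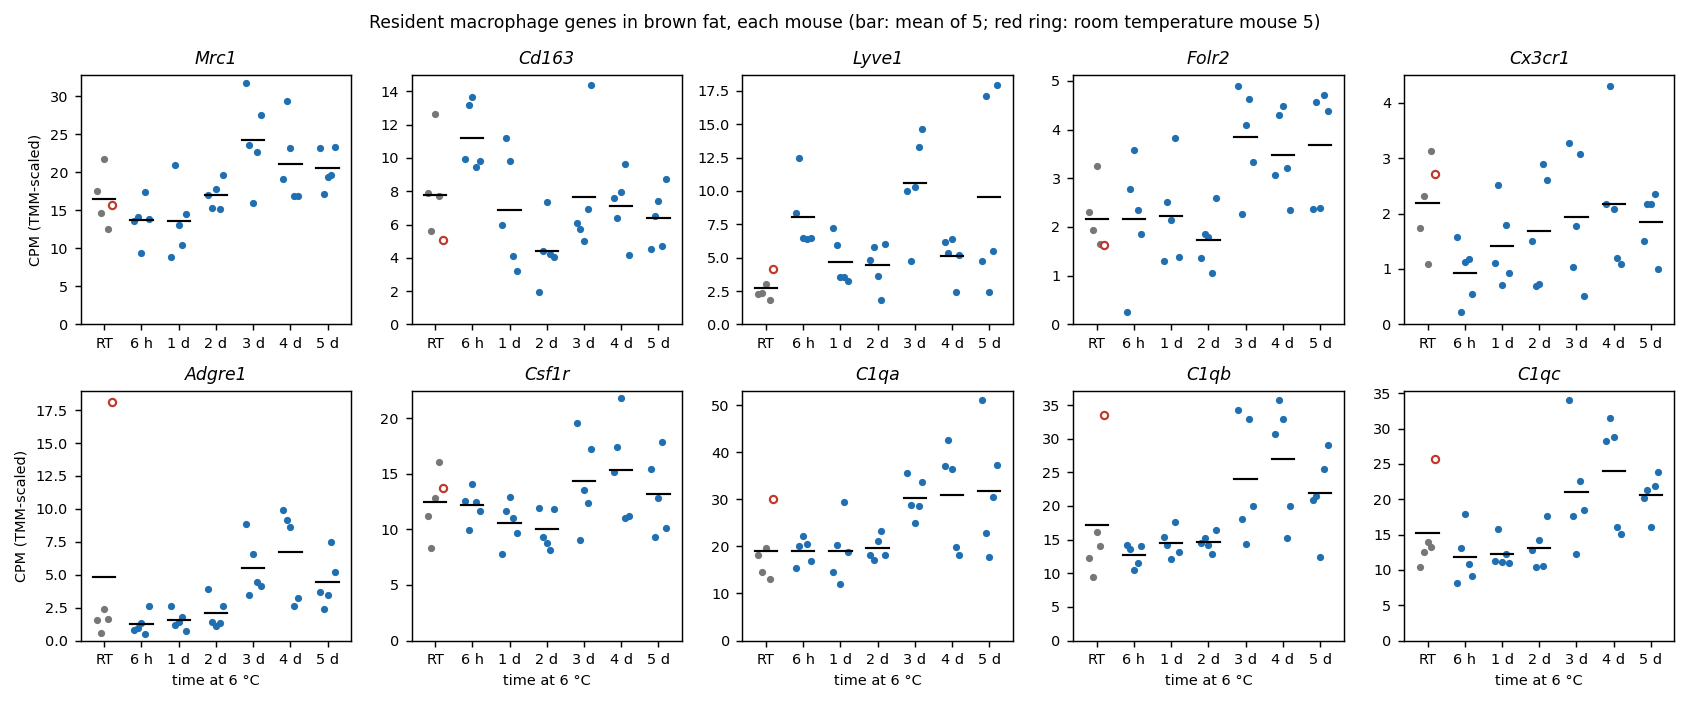
Level of each of the 10 genes in every mouse, in TMM-scaled CPM (vertical axis) by time at 6 °C (RT, room temperature), with the mean of each group of 5 as a bar and room temperature mouse 5 as a red ring. The ringed mouse is far above the other controls for Adgre1, C1qb and C1qc, and Lyve1 is above all controls in every mouse after 6 hours and 3 days.

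The tissue held other macrophage genes, but their reads cannot show whether the members' reads came from resident macrophages. All 12 genes of a list for macrophages in general had reads, Lyz2 (lysozyme) at a mean of 46.0 CPM and the lysosomal protease Ctss at 44.2 CPM. Among 16 further genes of resident macrophages, the transcription factor Maf, which other cells also express, had a mean of 59.1 CPM. Lyve1 is also a gene of lymphatic endothelium, and 5 of 6 genes of those vessels had reads, while Ccl21a had 0 in all 35 libraries. Their summed level reached 22.8 CPM in 1 mouse after 2 days.

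Each duration was compared with room temperature by edgeR's quasi-likelihood test, and a gene was called at a Benjamini-Hochberg adjusted p below 0.05 over all genes tested. The same 5 controls enter all 6 comparisons, which are therefore not independent. Few reads kept some members out of the test. After 6 hours and after 1 day 7 of the 10 were tested, without Folr2, Cx3cr1 and Adgre1. The test took 8 at 2 days (without Folr2 and Adgre1), all 10 at 3 and 4 days, and 9 at 5 days (without Cx3cr1). A member that entered the test only at late durations did so through its late level, so the counts of tested members are not support in themselves.

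No member was called lower than room temperature at any duration. After 6 hours Lyve1 alone was called higher, where 21.5% of all genes tested were called higher and 21.0% lower. After 1 day and after 2 days 0 members were called in either direction, beside 18.9% and 16.4% of all genes called higher and 17.8% and 14.7% called lower. At each of these durations 1 member had an unadjusted p below 0.05 (Lyve1 after 1 day, Cd163 after 2 days), and DESeq2 called 0 members after 1 day and 1 after 2 days (Cd163, lower). After 3 days 4 of 10 members were called higher, Mrc1, Lyve1, Folr2 and C1qa, beside 18.3% of all genes higher and 15.5% lower. Folr2 was not tested at the earlier durations and entered this test through its 3-day level, so its call is not support in itself. The numbers were 3 of 10 after 4 days (Lyve1, C1qa and C1qc, beside 19.4% higher and 18.6% lower) and 2 of 9 after 5 days (Lyve1 and C1qa, beside 20.2% higher and 18.6% lower).

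Without room temperature mouse 5, 1 member was called higher after 6 hours and after 1 day (Lyve1 each time) and 0 after 2 days, beside 19.3%, 16.1% and 13.8% of all genes tested. The count was 6 at 3 days (Mrc1, Lyve1, Adgre1, C1qa, C1qb and C1qc) and 5 at 4 days and at 5 days (Lyve1, Adgre1, C1qa, C1qb and C1qc), beside 16.0%, 17.1% and 18.5% of all genes. Adgre1 entered these late tests through its late level, so its part in the counts is not support in itself. Cd163 was called lower after 2 days without that mouse, beside 12.1% of all genes. No member was called lower at the other durations, where 18.4%, 15.4%, 12.8%, 16.0% and 16.0% of all genes were. The median log2 fold change over the members tested was -0.06 at 6 hours, -0.24 at 1 and at 2 days, and then 0.47, 0.55 and 0.34 at 3, 4 and 5 days. Over all genes tested it lay between -0.03 and -0.01. Without mouse 5 the members' median was 0.03 at 2 days and 0.75, 0.77 and 0.71 at the last 3 durations. Scaling by library size alone shifted the median of all genes by -0.14, -0.13 and -0.23 at 3, 4 and 5 days and left 1, 0 and 1 members called higher there (Lyve1 at 3 and 5 days). With it the share of all calls that were higher was 35.5%, 35.0% and 26.3%, against 54.2%, 51.0% and 52.0% with TMM.

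**Figure D2:**
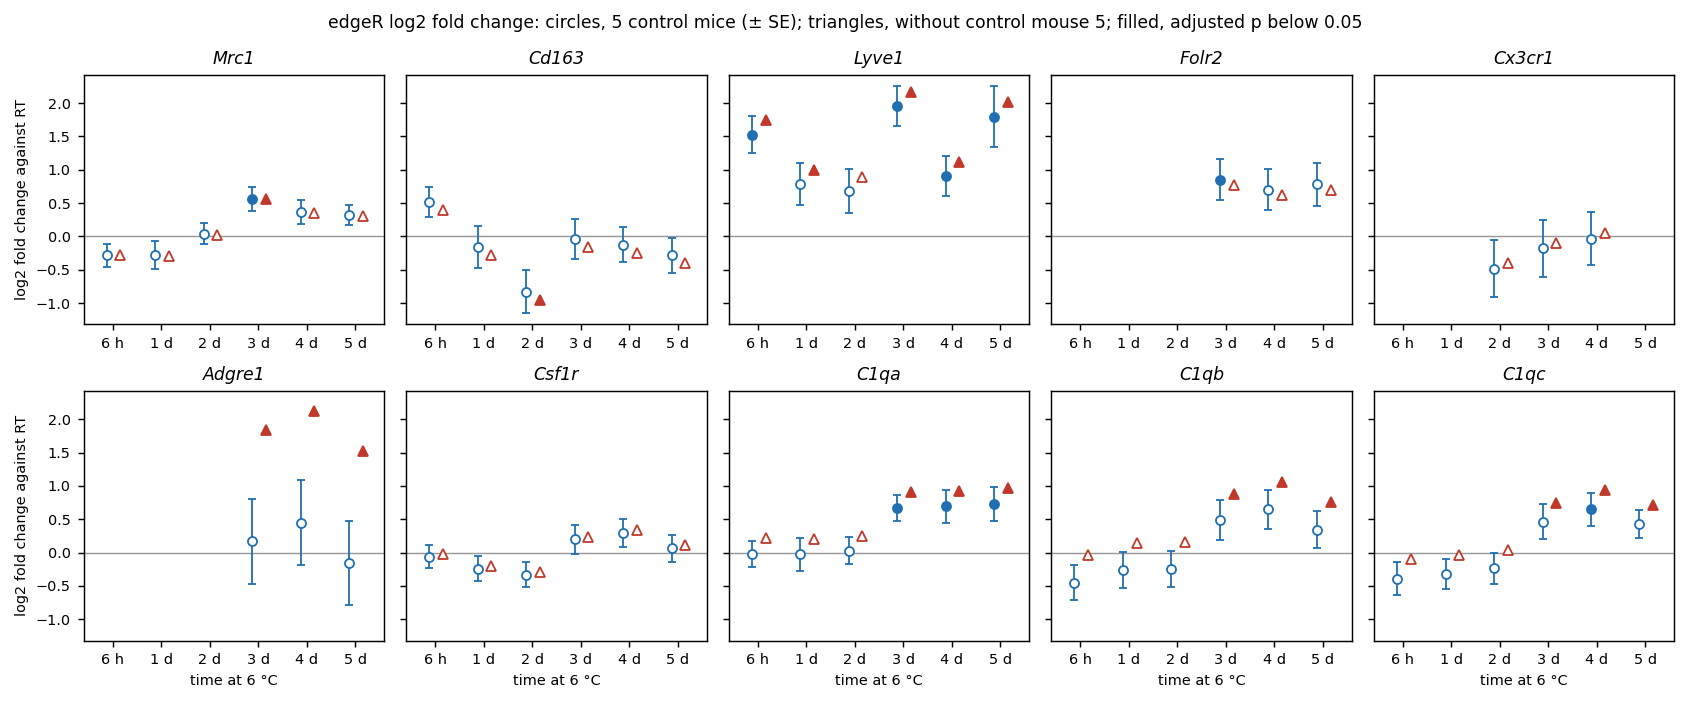
Log2 fold change of each gene against room temperature (vertical axis) by time at 6 °C, from edgeR with all 5 controls (circles, ± SE) and without room temperature mouse 5 (triangles), with filled symbols for an adjusted p below 0.05 and no symbol where the gene was not tested. Lyve1 is above 0 at every duration, C1qa has filled symbols at 3, 4 and 5 days, and Adgre1 moves most when the control mouse is left out.

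With all controls, C1qa was called higher at 3, 4 and 5 days, C1qc at 4 days and C1qb at none, and no C1q chain was called in the first 2 days. C1qa had 18.1, 14.5, 19.6, 12.97 and 30.0 CPM in the controls and 35.7, 28.7, 24.9, 28.5 and 33.7 CPM after 3 days. All 5 cold mice were above the first 4 controls, and 2 were above mouse 5. The difference was 0.67 on the log2 scale (SE 0.19, edgeR adjusted p = 0.0121), and without mouse 5 it was 0.90 (adjusted p = 0.000437).

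After 4 days C1qa split the group. Its values were 37.0, 42.7, 36.4, 19.8 and 18.2 CPM, 3 mice above all controls and 2 among them. The log2 fold change was 0.70 (SE 0.25, edgeR adjusted p = 0.0376), and the call was lost when any of 7 mice was left out, controls 1 to 4 or cold mice 1 to 3. After 5 days the values were 51.1, 22.8, 17.6, 30.4 and 37.2 CPM, and the log2 fold change was 0.73 (SE 0.25, edgeR adjusted p = 0.0288). That call was lost without control 1, 2 or 4 or without cold mouse 1 or 5. After 6 hours, 1 day and 2 days the log2 fold changes of C1qa were -0.03, -0.03 and 0.03, with SE of 0.19, 0.24 and 0.20.

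C1qb measured 12.3, 9.49, 16.1, 14.1 and 33.5 CPM in the controls, 34.3, 18.1, 14.4, 32.9 and 20.05 CPM after 3 days, and 30.7, 35.8, 33.0, 15.2 and 20.01 CPM after 4 days. Control mouse 5 was close to the highest cold mice, and the groups overlapped. The log2 fold changes were 0.48 (SE 0.30), 0.65 (SE 0.29) and 0.34 (SE 0.28) after 3, 4 and 5 days, none called (edgeR adjusted p = 0.234, 0.0892 and 0.351).

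Without that mouse C1qb was higher by 0.88, 1.05 and 0.75 on the log2 scale at those durations (edgeR adjusted p = 0.0129, 0.00263 and 0.0110), and at 4 days it was also called without cold mouse 4. In the first 2 days its estimates were -0.45, -0.26 and -0.24 with all controls and -0.04, 0.15 and 0.15 without mouse 5, so their sign after 1 and 2 days rested on that mouse.

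C1qc measured 10.4, 12.6, 13.9, 13.3 and 25.7 CPM in the controls and 28.2, 31.5, 28.8, 16.04 and 15.1 CPM after 4 days. Mice 1 to 3 of the 4-day group were above every control. Its log2 fold change after 4 days was 0.65 (SE 0.25, edgeR adjusted p = 0.0480), a call lost when any of the same 7 mice as for C1qa was left out. After 3 and 5 days the values were 0.46 (SE 0.26) and 0.43 (SE 0.21), not called with all controls (edgeR adjusted p = 0.185 and 0.107), and 0.74 and 0.72 without mouse 5 (adjusted p = 0.0258 and 0.00205).

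Lyve1, which encodes a hyaluronan receptor, was called higher than room temperature at 6 hours and at 3, 4 and 5 days. Its controls had 2.31, 2.32, 3.04, 1.81 and 4.16 CPM (11 to 23 reads). After 6 hours the mice had 8.38, 12.5, 6.49, 6.37 and 6.47 CPM. All 5 were above every control, with a log2 fold change of 1.53 (SE 0.28, edgeR adjusted p = 0.000278).

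The level of Lyve1 was lower again after 1 day (7.24, 5.94, 3.58, 3.57 and 3.21 CPM) and after 2 days (4.83, 5.80, 3.60, 1.84 and 6.06 CPM). These groups overlapped the controls, and the differences of 0.79 (SE 0.31) and 0.68 (SE 0.33) were not called (edgeR adjusted p = 0.0587 and 0.136). Without control mouse 5, or without cold mouse 4 or 5, the 1-day difference was called, at 1.0 without control mouse 5, and the 2-day difference was called without cold mouse 4.

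After 3 days Lyve1 reached 10.0, 4.72, 10.3, 13.3 and 14.6 CPM, again above every control, with a log2 fold change of 1.95 (SE 0.30, edgeR adjusted p = 0.000121). After 4 days it had 6.14, 5.34, 6.39, 2.41 and 5.23 CPM, 4 mice above and mouse 4 within the control range. That difference was 0.90 (SE 0.30, edgeR adjusted p = 0.0271), and the call was lost without control 1, 2 or 4 or without cold mouse 1 or 3. After 5 days the mice were the most unequal, with 4.72, 17.2, 2.40, 5.50 and 17.9 CPM, and the log2 fold change was 1.80 (SE 0.46, edgeR adjusted p = 0.00456). Over the 10 fits without 1 mouse it stayed called, between 1.44 and 2.05.

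Genes of lymphatic endothelium were set beside Lyve1. Of the 6 on that list, 2 were tested and 0 called after 6 hours and after 3 days. Their summed level was 4.70 to 7.88 CPM in the controls and 3.41 to 8.69 CPM after 6 hours. After 1 day 1 of the 2 tested, Flt4, was called higher, beside 18.9% of all genes. After 3 days the summed level of the 6 genes was 6.57 to 14.8 CPM. Pdpn, which stromal cells also express, then differed by 0.96 on the log2 scale without being called (SE 0.42, edgeR adjusted p = 0.0895). The part of lymphatic endothelium in the 6-hour and 3-day differences of Lyve1 was not tested.

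Mrc1, the mannose receptor CD206, was called higher than room temperature after 3 days. It measured 17.5, 14.7, 21.7, 12.5 and 15.7 CPM in the controls and 31.7, 23.6, 16.01, 22.7 and 27.5 CPM after 3 days. All but 1 of the 3-day mice were above every control, for a log2 fold change of 0.57 (SE 0.18, edgeR adjusted p = 0.0220). The call was lost without control 2, control 4 or cold mouse 1. At 4 and 5 days the estimates were 0.36 (SE 0.18) and 0.32 (SE 0.15), and at 6 hours and 1 day -0.28 (SE 0.17) and -0.28 (SE 0.21), none called with all mice. Without control 3, which had the highest control value, the 4-day and 5-day differences were called.

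Folr2, a folate receptor, was near the limit of the test, at 1 to 26 reads per mouse. Its controls had 2.31, 1.94, 3.26, 1.64 and 1.63 CPM, and the 3-day mice 4.90, 2.26, 4.09, 4.62 and 3.34 CPM, 4 of them above every control. The log2 fold change was 0.85 (SE 0.31, edgeR adjusted p = 0.0419), and of the 10 fits without 1 mouse only those without control 3 or cold mouse 2 kept the call. The values at 4 and 5 days were close to it, 0.70 (SE 0.30) and 0.78 (SE 0.32), with adjusted p of 0.0773 and 0.0635 from edgeR, and they were called without control 3, without 4-day mouse 5 or without 5-day mouse 1 or 3. At the earlier durations, where edgeR did not test it, the differences of log2 CPM were -0.18, -0.00 and -0.27 (two-sided exact permutation p = 0.849, 0.984 and 0.294). Folr2 entered the late tests through its late level, so its 3-day call is not support in itself.

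Cd163, the receptor for haptoglobin-haemoglobin complexes, was not called against room temperature at any duration with all controls. It had 7.90, 5.62, 12.6, 7.72 and 5.07 CPM in the controls, 9.95, 13.2, 13.6, 9.43 and 9.80 CPM after 6 hours and 1.96, 4.41, 7.37, 4.20 and 4.04 CPM after 2 days. The 6-hour mice were all above 4 of the 5 controls, and 4 of the 2-day mice lay below every control. Neither difference was called, at 0.51 (SE 0.22, edgeR adjusted p = 0.0719) and -0.83 (SE 0.32, edgeR adjusted p = 0.0606).

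The 2-day difference of Cd163 was past the threshold with DESeq2 and without control mouse 5 (adjusted p = 0.0478 and 0.0430), and also without cold mouse 3. The 6-hour difference was called without control mouse 3. From 3 days on, Cd163 was near the control mean, with 6.07, 5.74, 4.98, 6.93 and 14.4 CPM after 3 days and log2 fold changes of -0.04, -0.12 and -0.28 after 3, 4 and 5 days (SE 0.30, 0.26 and 0.26). Hp, which encodes its ligand haptoglobin and is abundant in fat, was at 353 CPM in the controls and 207 CPM after 3 days, not called (log2 fold change of -0.76, SE 0.31, edgeR adjusted p = 0.0712). It was called lower at 1, 4 and 5 days, when it was at 135, 98.6 and 83.5 CPM (log2 fold changes of -1.38, -1.84 and -2.08, SE 0.32, 0.26 and 0.30, edgeR adjusted p = 0.00325, 3.56e-05 and 3.39e-05).

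Csf1r, the receptor whose signal macrophages need, was not called at any duration. It had 11.2, 8.33, 12.8, 16.1 and 13.8 CPM in the controls, 11.9, 9.27, 8.81, 8.14 and 11.8 CPM after 2 days and 15.2, 17.4, 21.8, 11.03 and 11.2 CPM after 4 days. Every cold group overlapped the controls. Its log2 fold changes ran from -0.33 (SE 0.19) after 2 days to 0.29 (SE 0.21) after 4 days. Of its ligands, Csf1 was higher after 3 days by 1.31 (SE 0.21, edgeR adjusted p = 0.000138), rising from a mean of 5.29 CPM in controls to 13.1 CPM, and after 4 days by 0.80 (SE 0.23, edgeR adjusted p = 0.0117). At 2 days it was called too (0.88, SE 0.30, edgeR adjusted p = 0.0331), but not without control 1, 2, 3 or 4 or cold mouse 1 or 2. Il34 was lower after 1 day, with a log2 fold change of -1.13 (SE 0.23, edgeR adjusted p = 0.00123), and at 4 and 5 days, with -0.67 and -0.70 (edgeR adjusted p = 0.0379 and 0.0150). The 4-day call of Il34 was lost without any of controls 3 to 5 or cold mice 1, 4 and 5, and the 5-day call without control 3. Of the 6 genes of the Csf1r pathway in all, 3 were higher and 0 lower after 3 days (Csf1, Irf8 and Csf2rb), beside 18.3% of all genes higher and 15.5% lower.

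Adgre1 had the largest gap between its results with and without control mouse 5. The controls were at 1.54, 0.581, 2.39, 1.64 and 18.1 CPM. After 3 days the mice had 8.87, 3.49, 6.58, 4.43 and 4.11 CPM, and after 4 days 9.94, 9.12, 8.64, 2.61 and 3.25 CPM. Every one of these 10 cold mice was above controls 1 to 4 and below control 5.

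The log2 fold changes of Adgre1 were 0.17 (SE 0.63), 0.45 (SE 0.64) and -0.15 (SE 0.63) after 3, 4 and 5 days, not called. Without control mouse 5 they were 1.84, 2.13 and 1.53 (edgeR adjusted p = 0.00240, 0.00208 and 0.00869). In the first 2 days, where it was not tested, the mice ranged from 0.472 to 3.92 CPM, a range that overlaps the first 4 controls. Adgre1 entered the late tests through its late level, so its calls there are not support in themselves.

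Cx3cr1, the receptor of the chemokine fractalkine, was the weakest member and was not called at any tested duration. The controls had 1.73, 2.32, 1.09, 3.12 and 2.71 CPM and the 6-hour mice 1.57, 0.231, 1.12, 1.18 and 0.555 CPM, 1 to 6 reads each. The difference of log2 CPM after 6 hours was -1.01 (two-sided exact permutation p = 0.0317, adjusted p = 0.238 over 60 tests), and 2 of the 5 mice lay below every control. From 2 to 4 days its log2 fold changes were -0.48, -0.18 and -0.03 (SE 0.43, 0.43 and 0.40). Cx3cl1, which encodes fractalkine, was higher after 3, 4 and 5 days, by 1.16, 1.71 and 1.18 on the log2 scale (SE 0.30, 0.35 and 0.37), with edgeR adjusted p of 0.00724, 0.00104 and 0.0175. The 5-day call was lost without cold mouse 1.

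Exact permutation tests over every split of 5 against 5 mice were run for all 10 genes at all 6 durations. Their smallest possible p is 0.00794, and 0 of the 60 tests passed the threshold after adjustment over the 60, the lowest adjusted p being 0.238. Lyve1 after 6 hours and after 3 days reached the smallest possible p. With so few splits, 2 results at that p adjust only to 0.238, so the adjusted test could not call a few genes, and it does not say that they did not differ.

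The cold durations were also compared with each other, which leaves the controls out. Between successive durations 0 members were called, beside 16.9% of all genes from 6 hours to 1 day, 1.27% from 1 to 2 days, 0.142% from 2 to 3 days and 0% from 3 to 4 and from 4 to 5 days. The step from 2 to 3 days stood out in its estimates. All 9 members tested there were higher after 3 days with an unadjusted p below 0.05, where 4.81% of all genes were higher and 3.55% lower by that measure. None passed after adjustment in edgeR, and DESeq2 called 2 of them, Lyve1 and C1qa. Without 3-day mouse 2, edgeR called Lyve1. Folr2 and Adgre1 were not tested from 1 to 2 days and entered this step through their 3-day level. Their part in the count of 9 is therefore not support in itself.

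C1qa came closest in that step. Its 2-day mice had 18.2, 17.2, 21.2, 23.4 and 18.2 CPM, all below the lowest 3-day mouse at 24.9 CPM, and the difference was 0.65 (SE 0.14, edgeR adjusted p = 0.0827). The estimates of the others were 1.39 for Adgre1, 1.27 for Lyve1, 1.18 for Folr2, 0.80 for Cd163, 0.73 for C1qb, 0.70 for C1qc, 0.53 for Mrc1 and 0.53 for Csf1r. The unadjusted counts at the other steps were 2 of 8 from 6 hours to 1 day, 0 of 7 from 1 to 2 days, 1 of 10 from 3 to 4 days and 0 of 10 from 4 to 5 days. The share of all genes by that measure was not taken at those steps, so these counts have no background. DESeq2 called 0 members at those 4 steps.

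From 6 hours to 5 days 5 of the 9 members tested were higher and 1 was lower, beside 35.8% of all genes called in either direction. Adgre1 was higher by 1.80 (SE 0.42), C1qc by 0.82 (SE 0.19), C1qb by 0.79 (SE 0.19), C1qa by 0.76 (SE 0.21) and Mrc1 by 0.60 (SE 0.16), with edgeR adjusted p of 0.00204, 0.00187, 0.00254, 0.00823 and 0.00655. In each of the 5, 4 of the 5-day mice were above every 6-hour mouse. Cd163 fell by 0.79 on the log2 scale (SE 0.22, edgeR adjusted p = 0.00740). Its 5-day values of 4.51, 6.51, 7.41, 4.71 and 8.76 CPM were all below the lowest 6-hour value of 9.43 CPM. These 6 calls were made in all 10 fits that left out 1 mouse. Adgre1 was not tested from 6 hours to 1 day and entered this comparison through its 5-day level, so its direction is not support in itself. Lyve1 (0.27, SE 0.39), Folr2 (0.77, SE 0.40) and Csf1r (0.13, SE 0.19) were not called.

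To see whether members moved apart, each was divided by C1qa in the same mouse. None of the 54 ratios passed the exact test after adjustment (the lowest adjusted p was 0.429). A single ratio at the smallest possible p adjusts to that value, so the adjusted test could not call it and does not say whether members moved apart. The ratio of Lyve1 to C1qa differed most. On the log2 scale it was -2.62 ± 0.13 (SD, n = 5) in the controls and -1.24 ± 0.46 (SD, n = 5) after 6 hours, with every 6-hour mouse above every control (two-sided exact permutation p = 0.00794, the smallest possible, and adjusted p = 0.429). After 3 days it was -1.56 ± 0.60 (SD, n = 5, exact permutation p = 0.0159, adjusted p = 0.429).

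The ratio of Cd163 to C1qa was -1.26 ± 0.74 (SD, n = 5) in the controls and -2.15, -2.03, -2.02 and -2.19 on average after 2, 3, 4 and 5 days. These differences, between -0.76 and -0.94, had exact permutation p of 0.0714 to 0.135, and the groups overlapped, with control mouse 5 the lowest control, at -2.48. Without it the controls were at -0.95 ± 0.33 (SD, n = 4) and the differences at the same durations were -1.20, -1.08, -1.07 and -1.24 (two-sided exact permutation p = 0.0159, 0.0238, 0.0317 and 0.0238, smallest possible 0.00794, adjusted p of 0.129 to 0.156). All 5 of the 2-day mice, at -2.98 to -1.47, then lay below the lowest of those controls, at -1.31. A lower ratio was not particular to Cd163. With all controls, the Cx3cr1 to C1qa ratio differed by -0.50, -0.98, -0.75 and -0.89 over 2 to 5 days. Its exact permutation p was 0.0714 to 0.317. The ratio of Csf1r differed by -0.38, -0.53, -0.39 and -0.63 (exact permutation p of 0.0635 to 0.214), and that of Mrc1 by -0.03 to -0.37. Those of Folr2 and Adgre1 lay on both sides of the control mean. The ratios of C1qb and C1qc to C1qa differed from the control mean by -0.38 to 0.05 on the log2 scale.

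**Figure D3:**
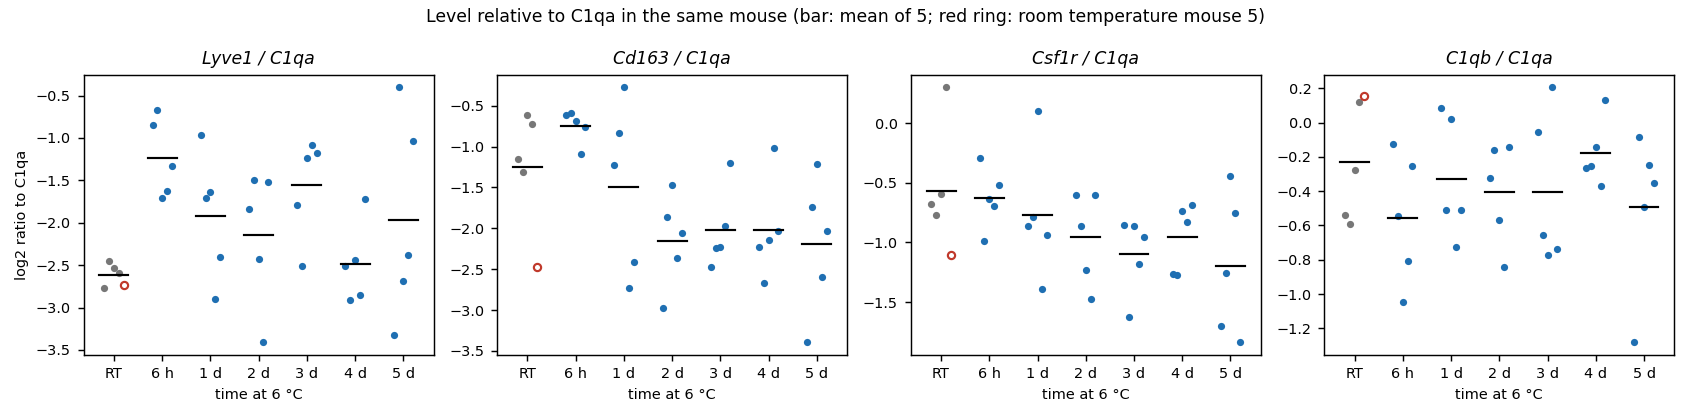
Log2 ratio of Lyve1, Cd163, Csf1r and C1qb to C1qa in the same mouse (vertical axis) by time at 6 °C (RT, room temperature), with group means as bars and room temperature mouse 5 as a red ring. The Lyve1 ratio of every 6-hour mouse is above every control, and the other 3 ratios overlap between that group and all 5 controls.

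Within durations, members were compared mouse by mouse after each gene's log2 CPM had been centred on its group mean, so that differences between durations do not enter (n = 35 mice). Of 45 pairs, 40 had a positive Pearson r, with a median of 0.29, and 8 passed a permutation test within durations after adjustment over the 45, all positive. All pairs share library and scaling. The C1q chains and Adgre1 made up 5 of the 8. C1qb and C1qc had r = 0.71 (Spearman rho = 0.68, permutation adjusted p = 0.00270 and 0.00540), and r = 0.64 once the 2 mice with the most extreme C1qb were left out.

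C1qa and C1qb had r = 0.63 (rho = 0.54, permutation adjusted p = 0.00702 and 0.0327), and C1qa and C1qc r = 0.62 (rho = 0.66, permutation adjusted p = 0.00270 and 0.00495). Without the 2 extreme mice of C1qa these were 0.63 and 0.65, and without control mouse 5 they were 0.55 each. C1qb with C1qc was at 0.63 without control mouse 5. Adgre1 had r = 0.71 with C1qb (rho = 0.66), r = 0.56 with C1qc (rho = 0.52) and r = 0.48 with Csf1r (rho = 0.53), with permutation adjusted p of 0.00540, 0.0391 and 0.0457 for r. Without the 2 extreme mice of Adgre1 these were 0.54, 0.44 and 0.47, and without control mouse 5 they were 0.56, 0.40 and 0.56.

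The remaining pairs past the threshold were Lyve1 with C1qb (r = 0.55, rho = 0.52, permutation adjusted p = 0.00702) and Folr2 with C1qc (r = 0.47, rho = 0.54, permutation adjusted p = 0.0422), at 0.44 and 0.37 without the 2 extreme mice of Lyve1 and of Folr2. Cd163 had no pair past the threshold, with r from -0.29 (Cx3cr1) to 0.26 (Mrc1). Lyve1 and Mrc1, both genes of vessel-associated macrophages, had r = 0.13 (rho = 0.19, permutation adjusted p = 0.538).

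**Figure D4:**
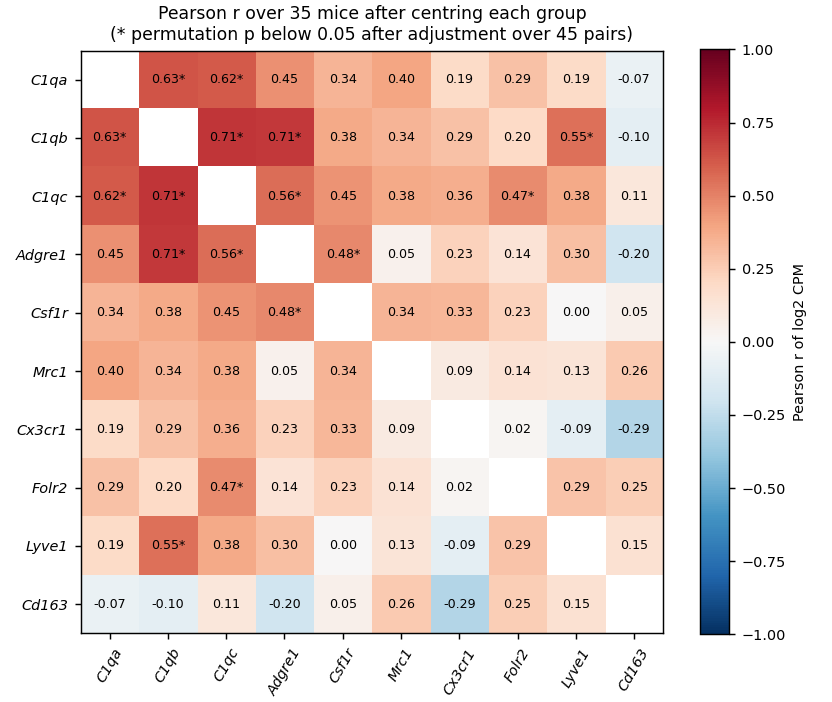
Pearson r of log2 CPM between each pair of the 10 genes over 35 mice after centring each group, on a colour scale from -1 to 1, with a star where the permutation p adjusted over the 45 pairs was below 0.05. The highest values, 0.71, are those of C1qb with C1qc and of C1qb with Adgre1, and Cd163 has no starred pair.

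Lgals3, which encodes galectin-3 and marks macrophages that take up lipid, rose from a mean of 6.50 CPM in controls to 136.8 CPM after 3 days (log2 fold change of 4.41, SE 0.52, edgeR adjusted p = 9.55e-06). With all mice it was also called at 1, 2, 4 and 5 days. The 1-day call was kept in only 5 of the 10 fits without 1 mouse (not without control 1, 2 or 4 or cold mouse 4 or 5). Within durations, C1qb (r = 0.54, rho = 0.57), C1qa (r = 0.51, rho = 0.46), Lyve1 (r = 0.51, rho = 0.38) and Adgre1 (r = 0.46, rho = 0.48) followed it past the threshold (permutation adjusted p over 10 genes of 0.00580, 0.0139, 0.0198 and 0.00865 for r and 0.00990, 0.0454, 0.112 and 0.0389 for rho). Without the 2 extreme mice of each member r was 0.51, 0.44, 0.39 and 0.52. Cd163 had the lowest value, r = -0.33 (rho = -0.25, permutation adjusted p = 0.142).

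For each member, the 2 genes with the most similar level over the 35 mice, groups included, were taken by Pearson r among genes with a mean of at least 2 CPM. This is a description, since the mice share groups and scaling. C1qb and C1qc were each other's nearest gene (r = 0.84). The second nearest were Adgre1 for C1qb (0.84) and Clec12a for C1qc (0.83). Adgre1 was nearest to C1qb (0.84) and Clec4a1 (0.81), and C1qa to Cbr2 (0.80) and Lyz2 (0.80), all genes of macrophages or other myeloid cells. Without control mouse 5, r was 0.83 for C1qb with C1qc and 0.82 for C1qb with Adgre1.

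The nearest genes of the vessel-associated members were of several kinds. They were Unc93b1 (0.78) and Gltp (0.75) for Mrc1, Nid1 (0.75) and Ccl6 (0.75) for Lyve1, and C1qc (0.68) and Cbr2 (0.67) for Folr2. Cd163 was nearest to Cyb5a and Hars (0.66 each). Csf1r was nearest to Apobec1 (0.69) and Fuca2 (0.61), and Cx3cr1 to Tbc1d9b (0.69) and Aif1 (0.63).

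Other macrophage and leukocyte genes give the setting of these levels. Beside every list count below stand the shares of all genes called. These were 21.5% higher and 21.0% lower after 6 hours, and 18.3% and 15.5% after 3 days. After 1 and 2 days they were 18.9% and 17.8%, and 16.4% and 14.7%. After 4 and 5 days they were 19.4% and 18.6%, and 20.2% and 18.6%. A list count near these shares is no result about the list. Of 12 genes of macrophages in general, 0 were higher and 2 lower (Cd14 and Aif1) of 8 tested after 6 hours, and 7 were higher and 1 (Cd14) lower of 11 after 3 days. Without control mouse 5 these were 0 higher and 1 lower of 9, and 9 higher and 1 lower of 11. The median log2 fold change of that list after 3 days was 1.38, beside 0.47 for the members and -0.01 for all genes. Ctss was higher by 2.72 (SE 0.45, edgeR adjusted p = 0.000217) and Lyz2 by 1.38 (SE 0.31, edgeR adjusted p = 0.00286) after 3 days. The summed level of the list was 106.5 to 448.4 CPM after 3 days and 54.1 to 356.2 CPM after 4 days, when it was high in the same 3 mice as the C1q chains.

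Of 16 further genes of resident macrophages, 12 were tested at every duration. After 3 days 5 were higher (Cbr2, Pf4, Maf, Stab1 and Ms4a7) and 0 lower, with and without control mouse 5. Maf was higher by 0.53 (SE 0.15, edgeR adjusted p = 0.0130). At 5 days F13a1, Cbr2 and Pf4 were higher with and without control mouse 5, while with all controls 1 gene of the list was called lower. The list did not only rise. With all controls, 1 day gave 1 gene called higher (Pf4) against 2 called lower (Gas6 and Igf1). For 2 days the counts were 2 called higher against 1 called lower (Igf1).

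Of 7 genes of all leukocytes, 3 of 6 tested were lower after 6 hours (Ptprc, Cd52 and Rac2) and 2 of 7 higher after 3 days (Laptm5 and Cyba), and without control mouse 5 these were 0 lower and 6 higher. Ptprc differed by -1.0 after 6 hours (SE 0.37, edgeR adjusted p = 0.0377) and by -0.59 without that mouse (adjusted p = 0.169), and was not called either without control 4 or without cold mouse 3, 4 or 5. Laptm5 was higher by 1.16 (SE 0.38) and Cyba by 1.60 (SE 0.29) after 3 days, with edgeR adjusted p of 0.0271 and 0.000494, the call of Laptm5 being lost without controls 2, 3 or 4 or cold mice 1, 3 or 4. The part of the number of leukocytes in the members' changes was not tested.

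**Figure D5:**
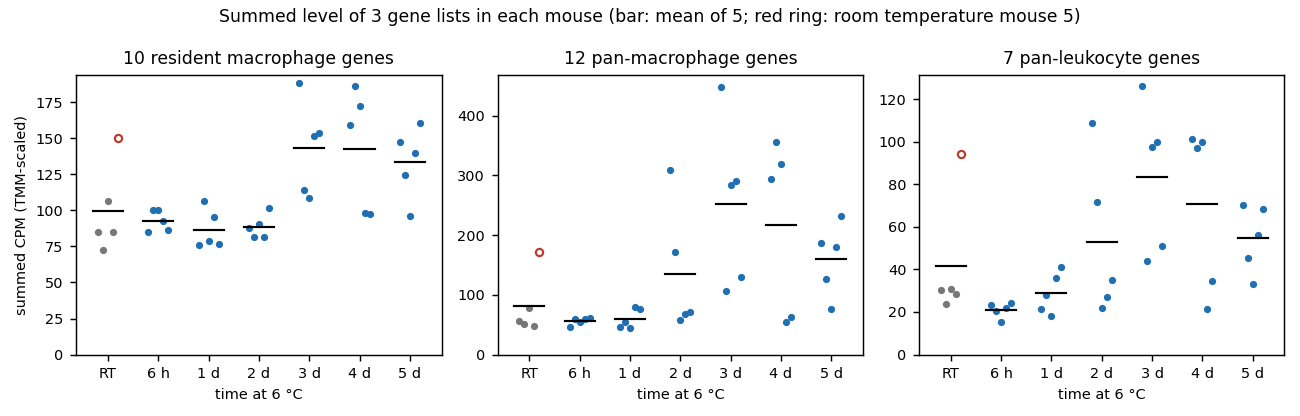
Summed level in each mouse, in TMM-scaled CPM (vertical axis), of the 10 members, 12 genes of macrophages in general and 7 genes of all leukocytes, by time at 6 °C, with group means as bars and room temperature mouse 5 as a red ring. The ringed mouse, at 150.4, 171.5 and 94.3 CPM, is above the other controls in each panel, and the 4-day mice fall into 3 high and 2 low ones.

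Of 12 genes of lipid-associated macrophages, 7 of 9 tested were higher after 3 days and after 5 days and 6 of 8 after 4 days, and 0 were lower. Ctsd, a lysosomal protease that most cells express, was higher by 0.80 after 3 days (SE 0.10, edgeR adjusted p = 2.24e-05) and Ctsb by 0.36 (SE 0.12, adjusted p = 0.0249), the latter not without control 1, 2 or 4 or cold mouse 1 or 4. Of 10 monocyte genes, 5 were tested after 3 days, of which Ccr2, Plac8 and Itgam were higher, while Fn1 was not called (-0.22, SE 0.31). Of 12 dendritic cell genes, 6 were tested after 3 days and 0 called in either direction, H2-Eb1 and H2-Aa at 0.17 and -0.16. The lists of neutrophils and of T and NK cells had 0 tested genes after 3 days.

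Around the C1q chains, 12 of 17 other complement genes were tested at each duration against room temperature. After 3 days C3, Serping1, C3ar1 and Cd93 were higher and Cr1l lower, and after 6 hours Cd93 was higher and C4b, Cd59a and Cr1l lower. Of all genes, 18.3% were higher and 15.5% lower after 3 days, and 21.5% and 21.0% after 6 hours. C3, the component on which the complement pathways converge, rose by 0.80 after 3 days (SE 0.13, edgeR adjusted p = 0.000226) to 318 CPM. Cd59a, which encodes a complement inhibitor, differed by -0.12 (SE 0.11) after 3 days. Of the genes of the Cx3cr1 and Cd163 ligands and of iron handling, 4 of 7 tested were higher after 3 days (Cx3cl1, Slc40a1, Ftl1 and Cd44), with the ferritin chain Fth1 at -0.03 (SE 0.12).

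Genes of other cells of the depot were counted after 3 days, when 18.3% of all genes were called higher and 15.5% lower. Of 6 blood endothelial genes, 3 were higher and 0 lower after 3 days, when Kdr and Pecam1 were higher by 0.46 and 0.61 (SE 0.15 and 0.13), Kdr not without control 3 or 5 or cold mouse 1 or 2. Of 7 genes of stromal cells, 0 were called after 3 days, with Dcn and Col1a1 at -0.26 and 0.47. Of 7 genes of brown adipocytes, 2 were higher and 2 lower. Ucp1, which uncouples respiration in brown adipocytes, was higher by 1.54 after 3 days (SE 0.19, edgeR adjusted p = 1.1e-05), and Fabp4 was not called (-0.31, SE 0.14). Of 5 genes of the muscle that borders the depot 0 were called, with Myh4 and Acta1 at -1.20 and -1.10 (SE 0.65 and 0.70), and of 6 B cell genes the 1 tested, Ighm, was at 0.70 (SE 0.42).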

How the data were processed

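Total RNA of iBAT was made into QuantSeq 3′ libraries, and the authors deposited raw counts per gene for 35 libraries. The submitters' processing notes name STAR 2.6.1d, HTSeq 0.11.2 and GRCm38. Mice were grouped by time at 6 °C from the labels, and no 2 libraries held identical values. The members and all comparison lists were chosen with earlier results of these data known, so no count over them is independent evidence. Mitochondrial genes took 40.2% of all counts. Counts were fitted in R 4.3.3 with edgeR 4.0.16 (TMM factors, filterByExpr, quasi-likelihood F test, Benjamini-Hochberg adjustment at 0.05 over all genes tested), each comparison with only its own 10 mice. Beside the members, the genes named were the 2 of highest mean CPM in each list among those tested at all 6 durations, plus Lgals3, Ptprc, Csf1, Il34 and Cx3cl1, and others only as called in a count, except a result that is not reported here. Exact permutation tests and correlations used log2 CPM with a prior count of 2, with 100000 permutations within durations for correlations. DESeq2 1.42.0, RLE factors, library size only, no filter, no mitochondrial genes and no Gm42418, all 7 groups in 1 fit, prior counts of 0.5 and 5, rlog, blocking on replicate number and fits without each mouse in turn were alternatives. List counts, gene likeness, shares of genes called and ratios to C1qa without room temperature mouse 5 were added after seeing the data. Scripts were tested on simulated data. The labels number the samples as replicates, which the authors describe as individual mice. The tests between groups set differences against the spread between those mice.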

Additional observations from a re-analysis of the deposited data

Results flagged for a closer look

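Over the 10 members in 7 groups of 5 mice, 70 sets of values were tested. In 5 of them a mouse was set apart by a gap that is large against the range of the group. Chance sets apart about 1 in 20, but the sets share the same 35 mice and are not independent. In 3 of them it was room temperature mouse 5, with 18.1 CPM of Adgre1 against at most 2.39 CPM in the other controls, 33.5 CPM of C1qb against at most 16.1 CPM and 25.7 CPM of C1qc against at most 13.9 CPM. The others were Cd163 at 3 days, with 14.4 CPM in mouse 5 against at most 6.93 CPM, and C1qc at 1 day, with 15.8 CPM in mouse 2 against at most 12.3 CPM. On the log2 scale 1 group met the same criterion, Lyve1 at 4 days, with 2.41 CPM in mouse 4 and 5.23 to 6.39 CPM in the other mice.

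The 5-day and the 6-hour mice differed directly, in a test without the control mice, for 6 members, of which Adgre1 entered the test through its 5-day level. The log2 fold changes of 5 days against 6 hours were 0.60 for Mrc1, 1.80 for Adgre1, 0.76 for C1qa, 0.79 for C1qb and 0.82 for C1qc, all higher at 5 days, and -0.79 for Cd163, lower at 5 days.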

How the results depend on the processing

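Over every result under every setting that kept all mice, there were 11 cases in which an estimate for a single gene changed sign and 35 in which a count moved by over 1.5 times. A gene or count that moved under several settings is a case under each, and the causes were not tested. With scaling by library size alone, the median of all genes against room temperature shifted by -0.13 to -0.23 on the log2 scale. The share of calls that were higher fell from between 50.6% and 54.2% to between 25.1% and 35.5%. The members called higher then numbered 1, 0 and 1 at 3, 4 and 5 days, and 1 was called lower at 6 hours, 1 day and 2 days. Estimates that changed sign under this scaling were those of Mrc1 (-0.18), C1qa (-0.21) and Ptprc (-0.049) at 2 days and Csf1r (-0.17) and Ptprc (-0.18) at 5 days. Relations past the threshold numbered 18 of 45 between members and 8 of 10 with Lgals3, and 5 genes were called from 2 to 3 days. The calls from 6 hours to 5 days were made under every setting with all mice.

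Without a filter on counts, members called lower numbered 2 at 6 hours, 1 at 1 day, 2 at 2 days, 2 from 6 hours to 1 day and 1 from 3 to 4 days, and 5 were higher from 2 to 3 days. With that setting all genes called numbered 518, 241, 141 and 98 for the 4 steps from 1 to 5 days, and Cx3cr1 at 4 days was at 0.00566. DESeq2 called 345, 77, 20 and 7 genes at these steps, where edgeR called 130, 15, 0 and 0, with 2 members higher from 2 to 3 days and 1 lower at 2 days. With all 7 groups in 1 fit, members called lower numbered 2, 1 and 0 at 6 hours, 1 day and 2 days, and 381 and 60 genes were called from 1 to 2 and from 2 to 3 days. Folr2 at 1 day was at 0.00429 in the exact test with a prior count of 5 and at 0.00884 with rlog values, and the Lyve1 to C1qa ratio at 4 days was at -0.059 with rlog values.

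Mice with the same replicate number showed no clear tendency to deviate together (correlations of -0.25 to 0.19, at most 2 of 5 pairs over 0.1 in any comparison). Such correlations cannot exclude that the numbers pair the mice. With the replicate block, members called higher numbered 2 at 6 hours and 1 at 4 days, and members called lower numbered 1 at 2 days and 2 from 6 hours to 1 day. The block left 75 and 5 genes called from 1 to 2 and from 2 to 3 days, and put C1qa at 6 hours at 0.00671 and Adgre1 at 5 days at 0.49.

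Over the fits that each left out 1 mouse, members called higher ranged from 1 to 2 at 6 hours, 0 to 1 at 1 and at 2 days, 2 to 6 at 3 days, 0 to 5 at 4 days, 1 to 5 at 5 days and 0 to 1 from 2 to 3 days. The 0 at 4 days came without control 1, 2 or 4 or without 4-day mouse 1 or 3. Members called lower ranged from 0 to 1 at 2 days and from 6 hours to 1 day. All genes called ranged from 29 to 206, 2 to 71, 0 to 1 and 0 to 1 over the 4 steps from 1 to 5 days, and relations between members past the threshold from 5 to 10.

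Estimates whose sign changed in such a fit are given by their ranges. At 6 hours they were Csf1r (-0.18 to 0.056), C1qa (-0.14 to 0.22) and Il34 (-0.28 to 0.053), and at 1 day Cd163 (-0.38 to 0.070), C1qa (-0.22 to 0.21), C1qb (-0.41 to 0.15) and Csf1 (-0.081 to 0.54). At 2 days they were Mrc1 (-0.053 to 0.15), C1qa (-0.091 to 0.26), C1qb (-0.40 to 0.15), C1qc (-0.35 to 0.042) and Ptprc (-0.16 to 0.55). At 3 days they were Cd163 (-0.37 to 0.19), Cx3cr1 (-0.41 to 0.036), Adgre1 (-0.12 to 1.84), Fth1 (-0.095 to 0.079), Fn1 (-0.42 to 0.18) and Il34 (-0.061 to 0.36). At 4 days they were Cd163 (-0.24 to 0.11) and Cx3cr1 (-0.42 to 0.15), and at 5 days Adgre1 (-0.44 to 1.53), Csf1r (-0.064 to 0.17) and Ptprc (-0.10 to 0.46). From 6 hours to 5 days they were Lyve1 (-0.091 to 0.52) and Csf1r (-0.00452 to 0.23). In the exact tests they were Folr2 at 6 hours (-0.39 to 0.25) and 1 day (-0.19 to 0.13) and Adgre1 at 1 day (-1.05 to 0.00661) and 2 days (-0.74 to 0.31), and among the ratios to C1qa Cd163 at 1 day (-0.55 to 0.068) and Lyve1 at 4 days (-0.061 to 0.24). Depth limited Cx3cr1 and Folr2 most, at 301 and 474 reads over the 35 libraries.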
